A study of Mus musculus with 12 samples.

Results

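The genes described here encode enzymes and carriers that make, move and break down amines and polyamines: Aoc1, Maoa, Maob, Slc6a2, Slc22a3, Odc1, Sat1, Srm and Sms. They were chosen by name from the estrous-cycle values of these same libraries, so every stage difference of theirs is a description with no test, and counts of members past a threshold are printed beside the background without being read. The 9 genes are 9 of 35896 genes with a matched transcript, and all 9 passed the filter on low counts, which 12052 genes passed. Genes around them in the same pathways, none of which is among the 9, were tested. That list was also chosen with earlier results of these data known, so its p-values are not those of an independent list.

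The study profiled whole uteri of wild-type Swiss Webster females, an outbred mouse stock, aged 8 to 12 weeks. The 4 groups differ by the labelled stage of the estrous cycle alone, with 3 uteri each in proestrus, estrus, metestrus and diestrus, and share strain, sex, genotype and tissue. The assay was 3' TagSeq, in which reads come from the 3' end of polyadenylated RNA, so CPM values (counts scaled by library size) are compared here between samples of the same gene and not between genes. The labels name collections in triplicate and give no batch, time of day or method of staging, and p-values measure the spread between these samples.

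Polyamines are made in a short chain: ornithine decarboxylase (Odc1) turns ornithine into putrescine, spermidine synthase (Srm) turns putrescine into spermidine, and spermine synthase (Sms) turns spermidine into spermine. Spermidine/spermine acetyltransferase (Sat1) starts their breakdown and export, and diamine oxidase (Aoc1), a secreted enzyme, oxidises putrescine and histamine. The monoamine oxidases (Maoa, Maob) sit on the outer mitochondrial membrane and oxidise noradrenaline, serotonin, dopamine and other monoamines, which enter cells through the noradrenaline transporter (Slc6a2) or the extraneuronal organic cation transporter (Slc22a3). In the uterus, polyamine synthesis and diamine oxidase are both known from the preparation for implantation and from the decidua, the tissue that stromal cells form around an embryo.

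Each library held between 1652841 and 2200563 estimated counts, and 3 counts corresponded to 1.37 to 1.89 CPM after scaling, intervals and floors covering counting error only. Metestrus libraries resembled each other least (Pearson's r of log2 CPM 0.897 to 0.910, against 0.939 to 0.957 within the other stages), and metestrus replicate 7 stood apart for several of the genes below. Transcripts of the uterine genes Hoxa10, Hoxa11, Esr1, Pgr and Msx1 were present at all stages, and markers of ovary, oviduct and adipocytes each summed to at most 50.1 CPM in a library, the highest mostly from Ovgp1. Summed epithelial markers (7 of 7 tested genes differed over the stages, beside 23.2% of all tested genes) were 1188 to 1588 CPM in proestrus, 1266 to 1546 in estrus, 589 to 1018 in metestrus and 635 to 766 in diestrus. In these bulk samples, fewer cells of a type and less RNA per cell cannot be told apart.

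The promoter windows of Odc1, Sat1 and Aoc1 are shown because their transcripts sat at opposite ends in estrus, where Sat1 and Aoc1 were highest and Odc1 lowest. Sequences are from RefSeq (GRCm38.p6), run 5′ to 3′ on the strand of the gene from 250 bases before to 50 bases after a start site, and lie at chr12:17544623-17544922 (plus strand), chrX:155216400-155216699 (minus strand) and chr6:48895005-48895304 (plus strand). Capitals mark the GC box GGGCGG on either strand in Odc1 and Sat1, and the estrogen-receptor core GGTCA on either strand in Aoc1.
Odc1: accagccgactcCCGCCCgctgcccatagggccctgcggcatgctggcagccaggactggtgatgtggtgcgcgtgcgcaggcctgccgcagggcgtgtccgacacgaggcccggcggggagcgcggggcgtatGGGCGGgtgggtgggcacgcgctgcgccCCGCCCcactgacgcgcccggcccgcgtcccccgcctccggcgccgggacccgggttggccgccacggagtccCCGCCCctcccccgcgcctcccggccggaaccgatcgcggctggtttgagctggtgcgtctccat
Sat1: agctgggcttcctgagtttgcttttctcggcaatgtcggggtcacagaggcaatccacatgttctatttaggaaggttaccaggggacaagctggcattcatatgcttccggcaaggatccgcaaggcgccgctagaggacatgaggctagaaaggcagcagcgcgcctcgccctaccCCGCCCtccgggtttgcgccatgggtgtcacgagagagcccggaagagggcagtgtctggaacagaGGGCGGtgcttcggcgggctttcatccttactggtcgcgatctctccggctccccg
Aoc1: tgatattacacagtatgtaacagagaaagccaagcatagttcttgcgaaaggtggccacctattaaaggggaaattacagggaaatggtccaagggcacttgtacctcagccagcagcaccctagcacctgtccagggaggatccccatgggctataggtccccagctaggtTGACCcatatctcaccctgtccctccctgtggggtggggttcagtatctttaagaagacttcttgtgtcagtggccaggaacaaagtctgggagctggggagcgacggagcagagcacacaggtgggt
Odc1 held 4 GC boxes and 78.0% G and C, Sat1 held 2 GC boxes and 60.3%, and Aoc1 held no GC box and 53.0%. A GC box was present in 35.7% of 32851 promoter windows of this length, and GGTCA in 40.5%. Sat1 also held 1 GGTCA. GC boxes matched as well in Maoa and in a window of Sms, and GGTCA in the other Sms window, although Sms varied little. The progesterone and glucocorticoid response element ACANNNTGT, in 6.85% of windows, matched in the Aoc1 window printed and in Slc22a3. The full estrogen response element, with 2 GGTCA cores facing each other across 3 bases, occurred in 0.07% of windows and in none of those matched to the 9 genes, and the E-box CACGTG (7.15% of windows) matched only in a window of Sms. These are letter matches, not binding sites. Windows were matched for 6 of the 9 genes, and Maob, Slc6a2 and Srm are named only.

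**Figure D1:**
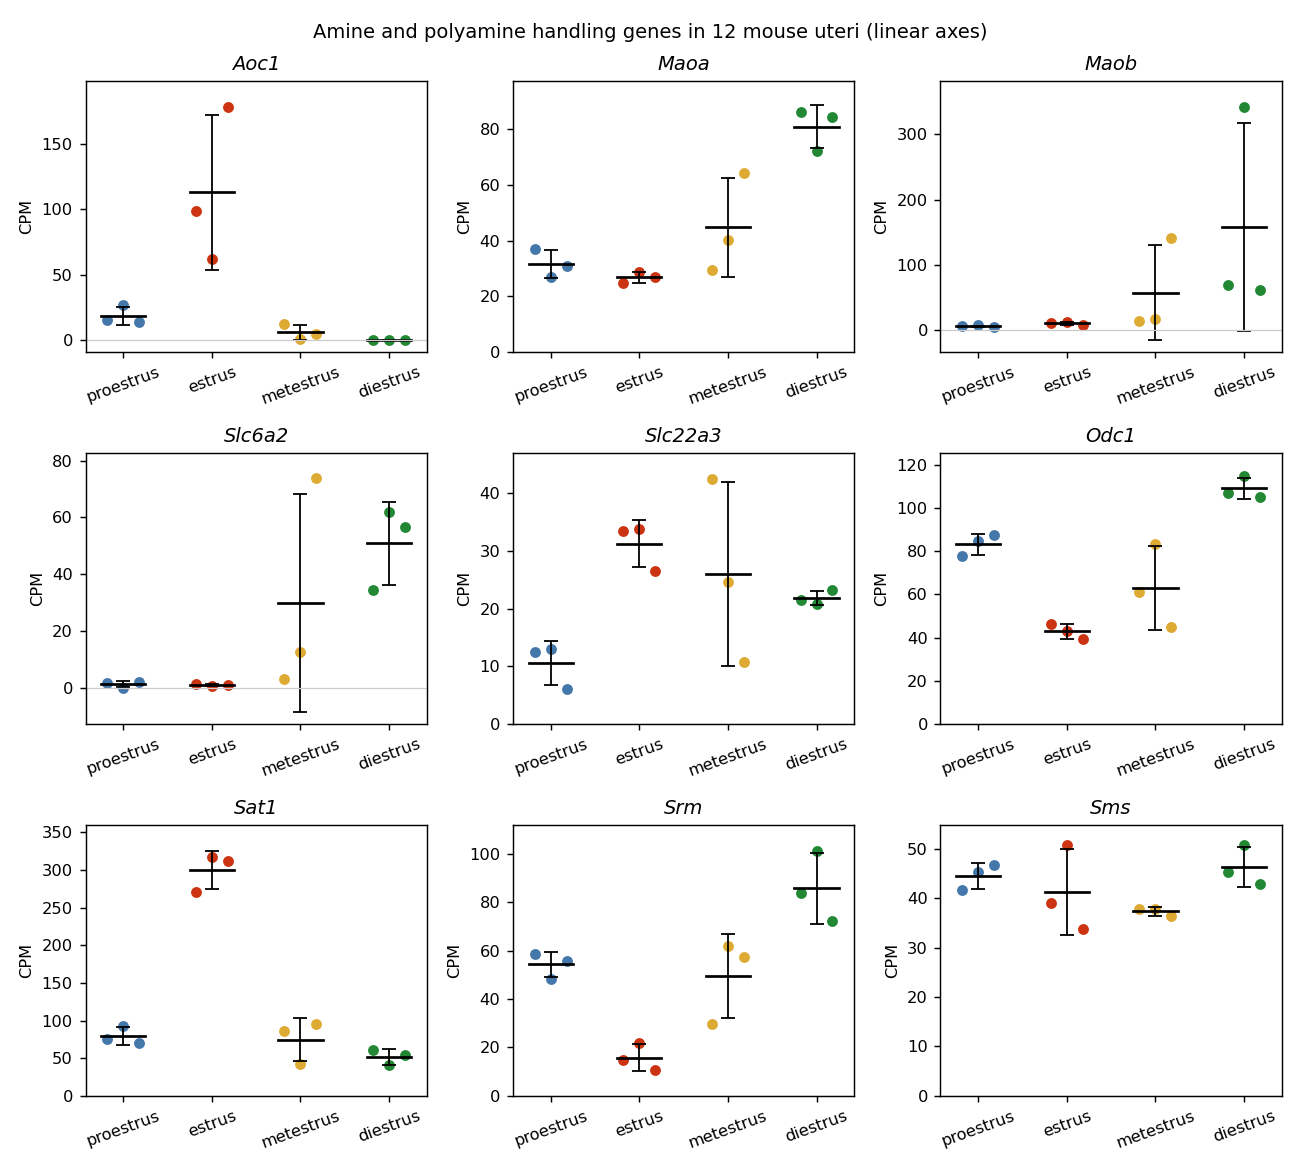
CPM (y axis, linear) of each of the 9 genes by stage (x axis). Each point is 1 uterus, horizontal lines are stage means and bars are SD (n = 3). Aoc1 and Sat1 were highest in estrus, Srm and Odc1 lowest in estrus, and Maoa, Maob and Slc6a2 highest in diestrus.

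The transcript of the first enzyme of polyamine synthesis was lowest in estrus and highest in diestrus. Odc1 (ENSMUSG00000011179, chromosome 12, 17544794 to 17551505 in GRCm38) measured 77.6, 84.6 and 87.3 CPM in proestrus replicates 1, 2 and 3, and 46.4, 42.9 and 39.4 CPM in estrus replicates 3, 4 and 5. It measured 61.2, 83.3 and 44.7 CPM in metestrus replicates 5, 6 and 7, and 107, 115 and 105 CPM in diestrus replicates 3, 4 and 5. All diestrus samples lay above all others and all estrus samples below all of proestrus, whereas metestrus overlapped both. Means were 83.2 ± 5.02, 42.9 ± 3.50, 63.1 ± 19.4 and 109 ± 4.98 CPM from proestrus through diestrus (SD, n = 3), a fitted log2 fold change of -0.96 ± 0.18 (SE) from proestrus to estrus and 1.35 ± 0.18 from estrus to diestrus.

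How far Odc1 varied depends on its processed pseudogene, Gm7993 (chromosome 5, 95974240 to 95975623). Of the 31-base words in Odc1 transcripts, 31.3% also occur in other genes, and 51.9% of those in Gm7993 occur in Odc1. Gm7993 had 1168 counts against 1659 for Odc1, and its means were 50.8 ± 11.1, 60.1 ± 16.6, 48.1 ± 6.18 and 53.2 ± 5.49 CPM from proestrus through diestrus. With the counts of both summed, a calculation chosen after seeing the data, proestrus measured 119, 133 and 150.2 CPM, and estrus 122, 105 and 82.0 CPM. Those groups overlap, and the log2 ratio of means came to -0.38. Diestrus measured 159, 164 and 165 CPM in sum, still above every other sample, with a log2 ratio to estrus of 0.66. The share of Gm7993 counts that came from Odc1 was not tested.

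**Figure D2:**
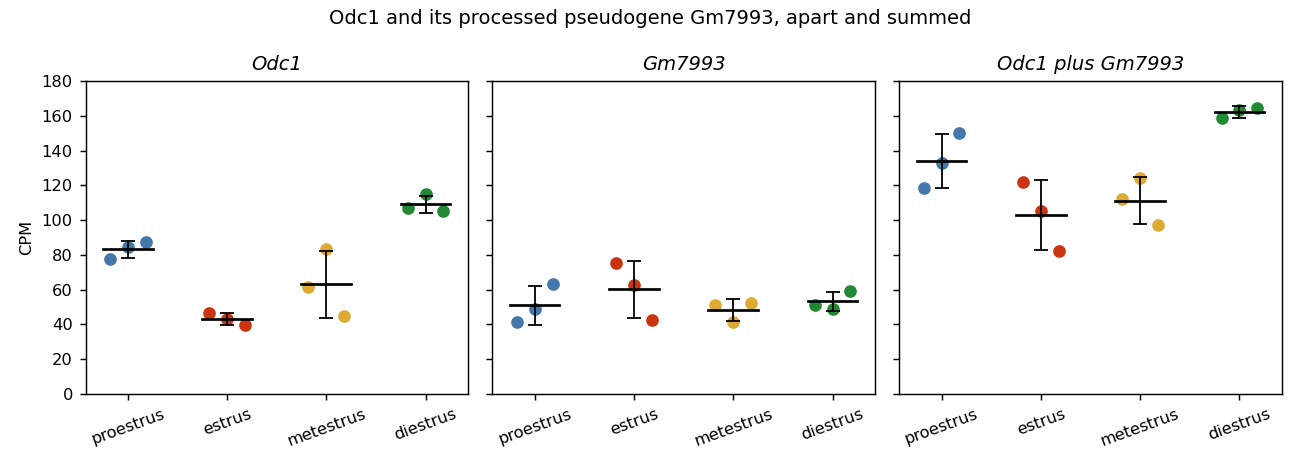
CPM (y axis, linear from 0) of Odc1, of Gm7993 and of their sum by stage (x axis). Points are uteri, lines are means and bars are SD (n = 3). The gap between proestrus and estrus closes in the sum, where the lowest proestrus value (119 CPM) lies under the highest estrus value (122 CPM), and diestrus stays above the other samples.

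The transcript to which 95.2% of Odc1 counts were assigned, Odc1-205, is annotated as a target of nonsense-mediated decay, the degradation of transcripts with an early stop. Its 3' end lies 421 bases beyond that of the protein-coding Odc1-201, whose last 300 bases are contained in it. Reads near the 3' end therefore place the end of the RNA and do not tell whether it was the coding form.

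Spermidine synthase followed the same order as Odc1, with a deeper minimum in estrus. Srm (ENSMUSG00000006442, chromosome 4, 148591503 to 148594993) measured 58.8, 48.5 and 55.8 CPM in proestrus replicates 1, 2 and 3, and 14.9, 21.7 and 10.5 CPM in estrus replicates 3, 4 and 5. In metestrus replicates 5, 6 and 7 it measured 29.6, 61.9 and 57.2 CPM, and in diestrus replicates 3, 4 and 5 it measured 83.8, 101 and 72.4 CPM. Every estrus sample was below every sample of the other stages, every diestrus sample above, and proestrus and metestrus overlapped. Estrus averaged 15.7 ± 5.65 CPM against 54.4 ± 5.27 in proestrus, a log2 fold change of -1.81 ± 0.29 (SE), and diestrus 85.9 ± 14.6 CPM, 2.47 ± 0.29 above estrus on the log2 scale. Over the 12 fits that each left out 1 library, the proestrus to estrus value ran from -2.15 to -1.58.

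Spermine synthase varied least of the 9 genes. Sms (ENSMUSG00000071708, chromosome X, 157443855 to 157492287) ranged from 33.9 CPM in estrus replicate 5 to 50.9 in diestrus replicate 4, with stage means of 44.5 ± 2.61, 41.3 ± 8.73, 37.4 ± 0.867 and 46.4 ± 4.06 CPM from proestrus through diestrus. Its estrus samples measured 39.0, 50.9 and 33.9 CPM and overlapped every other stage. The fitted log2 change from proestrus to estrus was -0.12 ± 0.16 (SE). Its counts were divided between the coding transcript Sms-201 (54.9%) and Sms-204 (40.8%), a form annotated for nonsense-mediated decay with another 3' end. With protein-coding transcripts alone the log2 change from estrus to metestrus moved from -0.14 to -0.71, and that from metestrus to diestrus from 0.31 to 0.65. With counts scaled from TPM the latter was -0.08, so the small variation of Sms depends on how its transcripts are counted. Sms was the member not called over the stages.

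Markers of dividing cells are given beside the synthesis genes. Summed Mki67, Top2a and Ccnb1 were 187 to 329 CPM in proestrus, 64.1 to 72.4 in estrus, 15.6, 309 and 122 in metestrus replicates 5, 6 and 7, and 159 to 184 in diestrus. Of the 3, 1 was called over the stages, beside 23.2% of all tested genes. Estrus lay below proestrus and diestrus in this sum as in Odc1 and Srm. Proestrus lay just above diestrus in the sum (lowest 187 against highest 184 CPM), without overlap in Ccnb1 but with overlap in Mki67 and Top2a. Odc1 and Srm were highest in diestrus. The lowest sum of the 12 libraries was that of metestrus replicate 5. The part of dividing cells in the Odc1 and Srm values was not tested.

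Transcripts of the polyamine acetyltransferase stood in estrus at several times their level in any other stage. Sat1 (ENSMUSG00000025283, chromosome X, 155213132 to 155216449) measured 75.9, 92.2 and 69.5 CPM in proestrus replicates 1, 2 and 3, and 271, 317 and 312 CPM in estrus replicates 3, 4 and 5. In metestrus replicates 5, 6 and 7 it measured 86.6, 41.7 and 96.0 CPM, and in diestrus replicates 3, 4 and 5 it measured 61.3, 40.5 and 54.3 CPM. All estrus samples lay above all others, diestrus lay below proestrus without overlap, and metestrus overlapped both of those. The estrus mean of 300.2 ± 25.5 CPM was 3.79-fold that of proestrus (79.2 ± 11.7), a log2 fold change of 1.92 ± 0.24 (SE), and 5.77-fold that of diestrus (52.1 ± 10.6). Leaving out any library kept the proestrus to estrus value between 1.83 and 2.04. The coding transcript Sat1-201 held 96.3% of its counts.

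Sat1 was high where Odc1 and Srm were low, and their ratio within a sample set estrus further apart than each gene did alone. Counts of Sat1 over Odc1 were 0.978, 1.09 and 0.797 in proestrus, 5.84, 7.40 and 7.93 in estrus, 1.42, 0.50 and 2.15 in metestrus and 0.572, 0.353 and 0.516 in diestrus, in replicate order. Counts of Sat1 over Srm averaged 1.48 ± 0.365 in proestrus, 20.8 ± 7.85 in estrus, 1.76 ± 1.13 in metestrus and 0.627 ± 0.197 in diestrus (SD, n = 3). Estrus lay above every other sample in both ratios, and diestrus overlapped metestrus. The uncertainty from Gm7993 applies to the ratio with Odc1 as well.

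**Figure D3:**
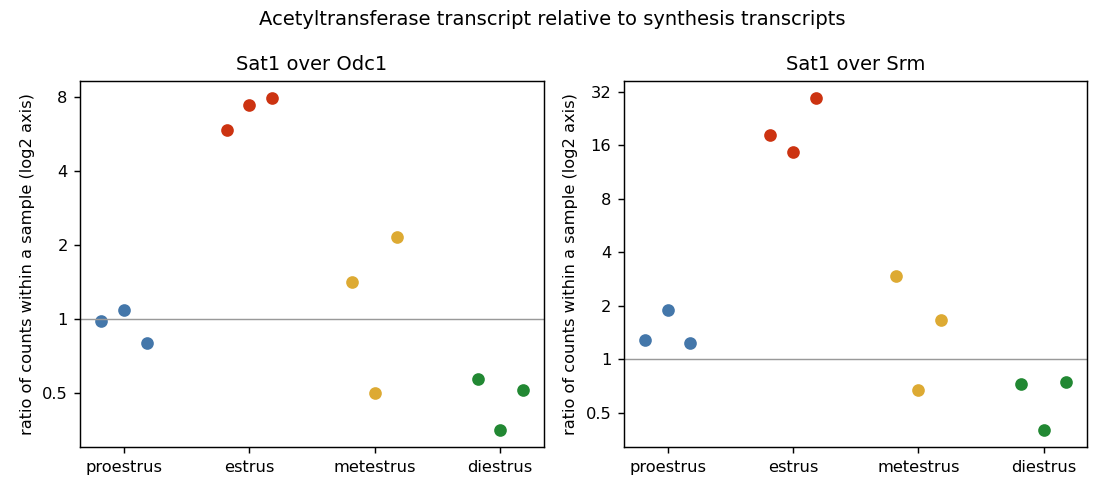
Ratio of Sat1 counts to Odc1 counts (left) and to Srm counts (right) within each uterus (y axis, log2 scale) by stage (x axis), 1 point per uterus. All 3 estrus samples, at 5.84 to 7.93 on the left and 14.6 to 29.7 on the right, lie above the other 9, and the diestrus samples lie under 1.

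Diamine oxidase peaked in estrus and was not detected in diestrus. Aoc1 (ENSMUSG00000029811, chromosome 6, 48872896 to 48909188) had 27, 50 and 28 counts in proestrus replicates 1, 2 and 3, 160, 108 and 388 in estrus replicates 3, 4 and 5, and 24, 2 and 8 in metestrus replicates 5, 6 and 7. Each of the diestrus libraries had 0 counts, which allows up to 3 counts per library. In CPM, proestrus measured 15.4, 27.0 and 14.2, estrus 99.0, 61.8 and 178, and metestrus 12.5, 1.26 and 4.77. No stage overlapped another, in the order estrus, proestrus, metestrus and diestrus, although metestrus replicate 6, at 2 counts, lay under the floor. Estrus averaged 113 ± 59.2 CPM, 5.98-fold proestrus (log2 fold change 2.59 ± 0.47, SE), and was at least 72.4-fold higher than diestrus at the floor of 3 counts per library. Without estrus replicate 5 the estrus mean was 79.7 CPM. Without metestrus replicate 5 the metestrus mean fell from 6.16 to 2.99 CPM. All Aoc1 counts were assigned to Aoc1-201, and reads from the 3' end do not show which start site was used. Besides the window printed above, a second Aoc1 window (chr6:48904736-48905035) held no GGTCA. The sum of epithelial markers was also lower in metestrus and diestrus, 589 to 1018 and 635 to 766 CPM against 1188 or more before. It did not separate proestrus from estrus. Means of Epcam, Krt8, Krt18, Krt19 and Cdh1 were higher in proestrus and estrus than later, but Cldn3 and Cldn4 differed. From proestrus through diestrus Cldn4 averaged 1.83, 16.5, 7.49 and 5.81 CPM, and Cldn3 71.3, 129.6, 95.2 and 142 CPM. The part of epithelial cells in the Aoc1 values was not tested.

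Monoamine oxidase A was highest in diestrus with little spread. Maoa (ENSMUSG00000025037, chromosome X, 16619698 to 16687818) measured 37.1, 27.0 and 30.96 CPM in proestrus replicates 1, 2 and 3, and 24.7, 28.6 and 27.0 CPM in estrus replicates 3, 4 and 5. In metestrus replicates 5, 6 and 7 it measured 29.6, 40.4 and 64.4 CPM, and in diestrus replicates 3, 4 and 5 it measured 86.3, 72.2 and 84.3 CPM. Diestrus lay above all other samples, metestrus above estrus, and proestrus overlapped both estrus and metestrus. The diestrus mean of 80.9 ± 7.63 CPM was 3.02-fold that of estrus (26.8 ± 1.94), a log2 fold change of 1.59 ± 0.23 (SE) that ran from 1.54 to 1.69 over the fits leaving out 1 library.

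Its neighbour on the X chromosome, Maob, shared the direction but rested on few uteri. Maob (ENSMUSG00000040147, chromosome X, 16709282 to 16817366), transcribed from the opposite strand, measured 6.28, 7.55 and 5.58 CPM in proestrus replicates 1, 2 and 3, and 11.8, 13.2 and 8.70 CPM in estrus replicates 3, 4 and 5. In metestrus replicates 5, 6 and 7 it measured 14.0, 17.0 and 142 CPM, and in diestrus replicates 3, 4 and 5 it measured 69.3, 342 and 62.3 CPM. Diestrus replicate 4 and metestrus replicate 7 stood far above the others of their stage. Proestrus lay below estrus, and estrus below metestrus and diestrus, without overlap. The diestrus mean of 158 ± 159 CPM was 14.1-fold that of estrus and fell to 66.0 CPM without diestrus replicate 4, and the log2 fold change went from 3.83 ± 0.88 (SE) to 2.59. Without metestrus replicate 7 the metestrus mean went from 57.6 to 15.8 CPM, and its log2 distance from estrus from 2.37 to 0.50. The ratio of Maoa to Maob counts was 5.01 ± 1.26 in proestrus and 2.46 ± 0.559 in estrus (SD, n = 3), 2.11, 2.37 and 0.454 in metestrus replicates 5, 6 and 7, and 1.25, 0.211 and 1.36 in diestrus replicates 3, 4 and 5. It was under 1 only in the same pair of libraries, metestrus replicate 7 and diestrus replicate 4. Only 0.176% of the 31-base words of Maob occur in another gene, Maoa, so reads of the paralogs were seldom ambiguous. Of the words of Maoa, 5.80% occur in other genes, most often in Olfr344, which had 3813 counts against 1022 for Maoa. The share of Maoa counts that came from other genes was not tested.

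The noradrenaline transporter was near the detection floor in proestrus and estrus and clearly detected in diestrus. Slc6a2 (ENSMUSG00000055368, chromosome 8, 92960079 to 93001667) had 3, 0 and 4 counts in proestrus replicates 1, 2 and 3, and 2, 1 and 2 in estrus replicates 3, 4 and 5. It had 6, 20 and 124 counts in metestrus replicates 5, 6 and 7, and 69, 125 and 100 in diestrus replicates 3, 4 and 5. Proestrus and estrus overlapped, metestrus and diestrus overlapped, and the latter pair lay above the former without overlap. Diestrus averaged 50.9 ± 14.6 CPM, and the ratio of summed counts to estrus, 294 against 5, was 56.3 with an exact 95% counting interval of 23.9 to 175 that does not cover the spread between animals. Metestrus replicate 7, at 73.9 CPM, lay above all diestrus samples, and without it the metestrus mean fell from 29.9 to 7.98 CPM and the log2 change from estrus from 4.94 to 3.00.

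Few counts came from genes of noradrenaline synthesis. Th, the enzyme that starts noradrenaline synthesis, had 0 counts in all 12 libraries, and Dbh, which completes it, had 10 in all. Prph, a nerve marker and not a gene of synthesis, had 2. The sum of 6 sympathetic nerve markers was 18.9 to 25.7 CPM in proestrus, 12.6 to 20.6 in estrus, 16.6 to 35.2 in metestrus and 22.2 to 34.4 in diestrus, chiefly from Stmn2. Of the 2 that could be tested 0 were called by the F test, beside 23.2% of all tested genes. Every diestrus sum lay above every estrus sum, while the proestrus and metestrus ranges overlapped both. The part of nerve fibres in the Slc6a2 values was not tested. Gland markers summed to at most 11.1 CPM in proestrus and estrus, to 25.5 to 53.8 in diestrus, and to 10.4, 20.8 and 305 in metestrus replicates 5, 6 and 7, the last mostly from Prss29. Both gland genes that could be tested, Foxa2 and Cxcl15, were called over the stages, beside 23.2% of all tested genes. Since Foxa2 and Cxcl15 passed the filter on low counts only with their diestrus libraries, where they were highest, nothing is read from that call. The part of gland cells in the Slc6a2 and Maob values was not tested.

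The extraneuronal transporter differed chiefly by a low level in proestrus. Slc22a3 (ENSMUSG00000023828, chromosome 17, 12418960 to 12507704) measured 12.6, 12.9 and 6.09 CPM in proestrus replicates 1, 2 and 3, and 33.4, 33.8 and 26.6 CPM in estrus replicates 3, 4 and 5. In metestrus replicates 5, 6 and 7 it measured 42.5, 24.6 and 10.7 CPM, and in diestrus replicates 3, 4 and 5 it measured 21.4, 20.8 and 23.2 CPM. Proestrus lay below estrus and below diestrus, estrus lay above diestrus, and metestrus overlapped all of them. Estrus averaged 31.2 ± 4.05 CPM against 10.5 ± 3.85 in proestrus, 2.97-fold (log2 fold change 1.57 ± 0.40, SE). Of its counts, 93.2% were assigned to a form annotated for nonsense-mediated decay, whose 3' end lies 1009 bases beyond that of the coding form. The gene overlaps Plg on the opposite strand, and use of strand in counting is not given in the sources used here, so reads of the pair cannot be told apart.

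**Figure D4:**
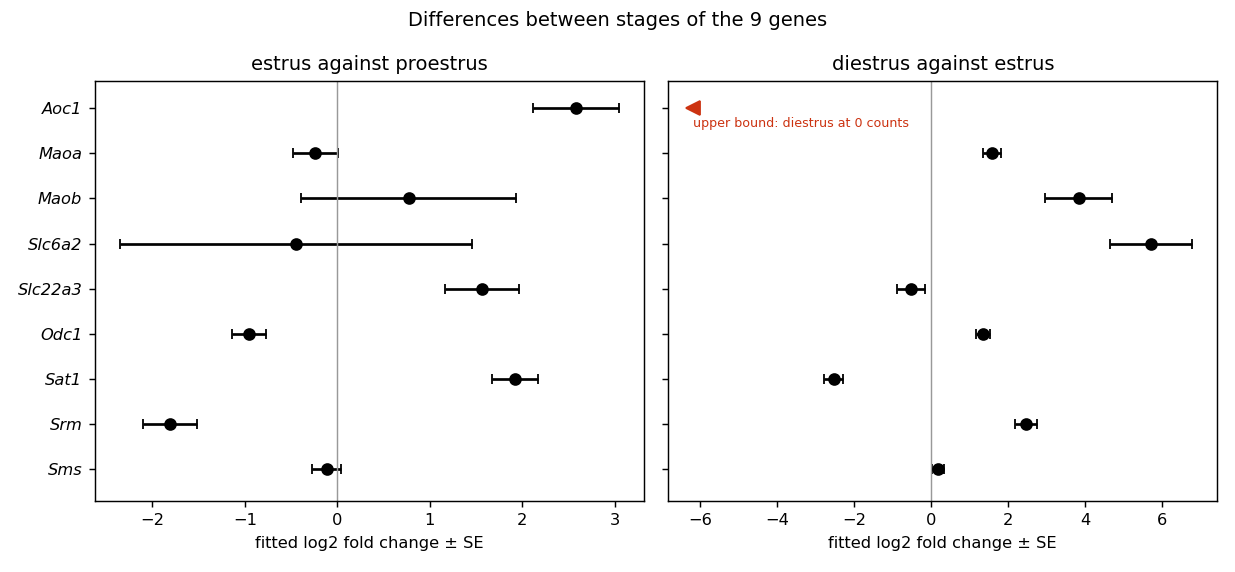
Fitted log2 fold change with its SE (x axis) of each gene (y axis) for estrus against proestrus (left) and diestrus against estrus (right). The red triangle marks Aoc1, with 0 diestrus counts, at a bound of at least 72.4-fold lower. Aoc1, Slc22a3 and Sat1 lie to the right in the left panel and Srm and Odc1 to the left, and Maoa, Maob, Slc6a2, Odc1 and Srm lie to the right in the right panel.

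Pairs of the 9 genes were compared over the 12 libraries by Pearson's r of log2 CPM, as a description without a test, since all points share libraries and stages. Maoa and Slc6a2 gave 0.94, Maob and Slc6a2 0.91, Odc1 and Srm 0.85, and Aoc1 and Sat1 0.89. Sat1 and Srm gave -0.92 and Aoc1 and Srm -0.90. Slc22a3 gave between -0.47 (with Srm) and 0.36 (with Sat1), and Sms at most 0.52 (with Odc1). Of all tested genes, Hdc, the enzyme that makes histamine, was among the 3 most like both Maoa (0.95) and Slc6a2 (0.95). The genes most like the others were Spint2 for Aoc1 (0.98), Cited4 for Maob (0.97), Ctsk for Slc22a3 (0.92), Tomm40 for Odc1 (0.96), Ctsl for Sat1 (0.98), Pold2 for Srm (0.97) and Sept11 for Sms (0.82). Ankrd26 (0.97) led for Maoa and Pcsk5 (0.98) for Slc6a2.

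Against the calls over all genes, the 9 genes counted as follows, and since their stage values chose them nothing is read from these counts. Over the stages 8 of 9 passed, where 23.2% of tested genes did. From proestrus to estrus 3 were higher (Aoc1, Sat1, Slc22a3; background 9.67%) and 2 lower (Odc1, Srm; background 7.46%). From estrus to metestrus 2 were higher (Srm, Slc6a2; background 2.83%) and 2 lower (Aoc1, Sat1; background 4.73%). From diestrus to proestrus 1 was higher (Aoc1; background 4.62%) and 3 lower (Maoa, Maob, Slc6a2; background 3.91%). Diestrus against estrus gave 5 higher (Maoa, Maob, Slc6a2, Odc1, Srm; background 9.72%) and 2 lower (Aoc1, Sat1; background 13.0%). Between metestrus and diestrus edgeR called 0 of 9, where 0.133% of tested genes were higher in diestrus and 0.0913% lower. There, 4 of the 9 had an unadjusted p under 0.05, beside 1361 of all 12052 tested genes. DESeq2 called 2 (Aoc1 and Odc1), beside 148 of all genes. Without metestrus replicate 7 edgeR called 3 (Maoa, Maob and Slc6a2), beside 83 of all genes. Without metestrus replicate 6 it called 1 (Odc1), beside 173, and with no filter 3 (Aoc1, Maoa and Odc1), beside 256. The 27 genes called there over all genes were 16 higher and 11 lower, and 26 and 6 with library totals in place of TMM factors.

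The wider pathway was tested on 65 other genes of amine and polyamine handling, of which 36 had enough counts. By edgeR's quasi-likelihood F test with Benjamini-Hochberg adjustment over all tested genes, 12 of the 36 differed over the stages, beside 23.2% of all tested genes. From proestrus to estrus 5 rose and 5 fell, beside 9.67% and 7.46% of all tested genes. From estrus to diestrus 6 rose and 4 fell, beside 9.72% and 13.0%. Between estrus and metestrus 2 were higher and 2 lower in metestrus, beside 2.83% and 4.73%, and between diestrus and proestrus 2 were higher and 3 lower in proestrus, beside 4.62% and 3.91%. Hrh1 is among the 12, among those that fell from proestrus to estrus and among those higher in proestrus than in diestrus, although it passed the filter on low counts through its proestrus libraries alone. Arg2 is also among the 12 and among those lower in proestrus than in diestrus, and it passed that filter only with its diestrus libraries. The median log2 fold change of the 36 lay between -0.07 and 0.10 over the 5 contrasts, and that of all tested genes between -0.02 and 0.02. Between metestrus and diestrus edgeR called 0 of 36, beside 0.133% of tested genes higher and 0.0913% lower in diestrus. There, 7 of the 36 had an unadjusted p under 0.05, beside 1361 of all 12052 tested genes. DESeq2 called 1, Hdc, beside 148 of all genes. Of the 12, Hdc, Aoc3, Arg1 and Eif5a, beside Hrh1, kept their call over the stages in each of the 12 fits that left out 1 library. Arg2 lost it without diestrus replicate 3 (adjusted p = 0.0549) or 5 (0.0536), Mtap without estrus replicate 3 (0.0631) or 5 (0.0694), and Smox without estrus replicate 4 (0.0585). Aldh9a1, Adra2a, Paox and Slc7a1 lost it in 8, 9, 7 and 7 of the 12 fits, with adjusted p up to 0.115, 0.246, 0.125 and 0.125. The count over the stages was 7 without estrus replicate 3, where that of all tested genes went from 2793 to 2088. The count from proestrus to estrus was 5 without proestrus replicate 2 or estrus replicate 3, and 6 without proestrus replicate 1 or 3 or estrus replicate 4 or 5. In those fits the count of all tested genes went from 2064 to between 1100 and 1445. The count between estrus and metestrus was 2 without estrus replicate 3 or 5, where that of all tested genes went from 911 to 515 and 341. Without metestrus replicate 7, edgeR called Hdc between metestrus and diestrus, beside 83 of all tested genes.

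Hdc, the enzyme that makes histamine, was highest in diestrus, and Hrh1, a histamine receptor, in proestrus. Hdc rose from estrus to diestrus, from 3.71, 5.72 and 4.12 CPM to 70.3, 92.4 and 64.5 CPM, a log2 fold change of 4.05 ± 0.48 (SE), with all 3 diestrus samples above all estrus samples (edgeR adjusted p = 0.0001). Proestrus stood at 5.34 ± 1.17 CPM (SD, n = 3), below diestrus (edgeR adjusted p = 0.000323). Hrh1 measured 16.0, 12.9 and 9.14 CPM in proestrus, at most 4.42 CPM in the other 9 libraries, and 0.499, 0 and 0 CPM in diestrus. Since it passed the filter through proestrus alone, a difference was fixed by the filter, and these values are a description. Proestrus held 70 counts against 1 in diestrus, a ratio of 72.7 with an exact 95% counting interval of 12.6 to 2913. The rise of Hdc from estrus to metestrus (log2 fold change 2.36 ± 0.52, edgeR adjusted p = 0.0174) was lost without estrus replicate 3 (0.0584) or 5 (0.0748) and with the samples of those stages alone (0.0792), and its log2 value was 1.71 without metestrus replicate 7. Mast cells, a known source of histamine, had markers summing to 17.1 to 24.9 CPM in proestrus, 32.2 to 51.3 in estrus, 49.3 to 69.4 in metestrus and 27.4 to 73.6 in diestrus. Of 5 tested markers 1 was called over the stages, beside 23.2% of all tested genes. The part of mast cells in the Hdc values was not tested.

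Among other genes of amine breakdown, Aoc3, a membrane-bound amine oxidase of vessels and smooth muscle, rose to estrus and was lower again after it. Aoc3 measured 34.8, 47.4 and 54.3 CPM in proestrus and 106, 80.1 and 87.5 CPM in estrus (log2 fold change 1.00 ± 0.18, edgeR adjusted p = 0.00279), all estrus samples being higher. Metestrus averaged 46.5 ± 7.89 CPM (edgeR adjusted p = 0.00611 against estrus) and diestrus 46.2 ± 1.52 CPM (SD, n = 3). The calls for Aoc3 held in each of the 12 fits that left out 1 library. Smooth muscle markers, 2 of 5 of which were called over the stages (beside 23.2% of all tested genes), summed to 5379 to 7492 CPM in proestrus, 6307 to 8331 in estrus, 4083 to 6334 in metestrus and 5430 to 5648 in diestrus. Among them Myh11, a smooth muscle myosin, measured 1901 to 2179 CPM in estrus and at most 1375 CPM in the other libraries. The other markers were divided. Mean Des and Actg2 were higher in estrus than in proestrus (756 against 542 and 986 against 822 CPM). Mean Acta2 and Cnn1 were lower in estrus (2686 against 3220 and 782 against 805 CPM). The part of smooth muscle in the Aoc3 values was not tested. Aldh9a1, which oxidises the aldehydes that amine oxidases leave, was 1.37-fold higher in estrus than in proestrus (edgeR adjusted p = 0.0352, all 3 estrus samples higher), and that call ended without any single proestrus library or estrus replicate 3 or 5 (0.06 to 0.132) and in DESeq2 (0.0553). Of 17 receptors of histamine, catecholamines and serotonin, 4 could be tested, and Adra2a, an adrenergic receptor, rose 3.88-fold from proestrus to estrus (log2 fold change 1.90 ± 0.49, edgeR adjusted p = 0.0176). That call was lost without proestrus replicate 1 (0.0732) or 2 (0.0614) or estrus replicate 4 (0.112), and the log2 fold change without the last was 1.275.

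Of the arginases, which release ornithine, the substrate of Odc1, Arg1 changed most. Arg1 measured 39.9, 46.4 and 37.6 CPM in proestrus, 217, 251 and 384 CPM in estrus, 33.2, 3.16 and 3.58 CPM in metestrus and 1.496, 2.97 and 2.26 CPM in diestrus. No stage overlapped estrus. It rose by 2.78 ± 0.47 (log2, SE) from proestrus to estrus (edgeR adjusted p = 0.00207) and fell by 4.34 ± 0.53 from estrus to metestrus (adjusted p = 0.00047), and both calls held in all 12 fits leaving out 1 library. The metestrus mean of 13.3 CPM rested on replicate 5, without which it was 3.37 CPM and the log2 change from estrus -6.37. Arg1 was also 18.4-fold higher in proestrus than in diestrus (log2 fold change 4.16 ± 0.73, edgeR adjusted p = 0.00326, no overlap). Arg2, the mitochondrial arginase, averaged 1.99 ± 0.888 CPM in proestrus and 11.4 ± 4.27 in diestrus, lower in proestrus by a log2 difference of -2.48 ± 0.49 (no overlap). Arg2 passed the filter on low counts only with its diestrus libraries, where it was highest, so these values are a description. Macrophage markers, 3 of 4 of which differed over the stages (beside 23.2% of all tested genes), summed to 116 to 165 CPM in proestrus, 289 to 317 in estrus, 160 to 253 in metestrus and 159 to 203 in diestrus. Their part in the Arg1 and Sat1 values was not tested.

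Of the polyamine breakdown genes on the list, 2 of 3 were lower in diestrus than in estrus, where 13.0% of all tested genes were. Smox, which oxidises spermine directly, measured 27.4, 38.3 and 33.0 CPM in proestrus and 107, 118 and 89.3 CPM in estrus, a rise of 1.67 ± 0.36 on the log2 scale (edgeR adjusted p = 0.0077, all 3 estrus samples higher). In diestrus it measured 30.9, 41.0 and 40.2 CPM, lower than estrus by a log2 change of -1.48 ± 0.36 (edgeR adjusted p = 0.00917). Paox, which oxidises the acetylated polyamines that Sat1 makes, averaged 113 ± 21.9 CPM in estrus and 39.4 ± 9.22 in diestrus (log2 fold change -1.52 ± 0.36, edgeR adjusted p = 0.00847, no overlap). Of its 31-base words, 29.9% occur in other genes, so its level is uncertain. The calls of Smox and Paox between estrus and diestrus held in each fit that left out 1 library.

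Eif5a and Mtap were lower in estrus than in diestrus, the direction seen in Odc1 and Srm. Eif5a, the translation factor whose hypusine residue is made from spermidine, measured 272, 252 and 270.0 CPM in proestrus and 122, 153 and 142 CPM in estrus (log2 fold change -0.93 ± 0.16, edgeR adjusted p = 0.00251) and averaged 231 ± 35.1 CPM in diestrus, higher than estrus by 0.73 ± 0.16 (adjusted p = 0.00579). Mtap, which recycles the by-product of Srm and Sms, was 1.67-fold higher in diestrus than in estrus (edgeR adjusted p = 0.00427, all 3 samples higher). These calls held in each fit that left out 1 library. Slc7a1, an arginine carrier, fell by 0.77 ± 0.20 on the log2 scale from proestrus to estrus (edgeR adjusted p = 0.0173, all 3 lower), a call lost without proestrus replicate 2 (0.0522) or 3 (0.0533) or estrus replicate 3 (0.0558) or 4 (0.0614), and with counts scaled from TPM (0.163).

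Azin1, Oaz1 and Amd2 were called between estrus and diestrus at smaller sizes, and they are named after their values were seen. Azin1, the antizyme inhibitor that spares Odc1 from degradation, was 1.59-fold higher in diestrus than in estrus (edgeR adjusted p = 0.0226, all 3 samples higher), and the call was lost without estrus replicate 3 (0.0914) or diestrus replicate 3 (0.0797) or 4 (0.0741) and with counts scaled from TPM (0.0756). Oaz1, the antizyme that sends Odc1 to the proteasome, was 1.36-fold higher in diestrus (edgeR adjusted p = 0.0173, all 3 higher), lost without diestrus replicate 3 (0.0591). Amd2, which encodes the decarboxylase that supplies Srm and Sms, was 1.54-fold higher in diestrus (edgeR adjusted p = 0.0312, all 3 higher), lost without diestrus replicate 3 (0.11) or 5 (0.123) or any estrus library (0.0541 to 0.0846), and with counts scaled from TPM (0.0656). Of the 31-base words of Amd2, 90.9% occur elsewhere, chiefly in Amd1, so counts of the pair are uncertain. From proestrus to estrus Azin1 was 1.56-fold lower (adjusted p = 0.0361), lost without proestrus replicate 2 (0.118) or 3 (0.0955) or any estrus library (0.0594 to 0.127). Mtap was 1.40-fold lower (0.0483), lost without any library of those stages and without diestrus replicate 3 or 5 (0.0516 to 0.151), and in DESeq2 (0.123).

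**Figure D5:**
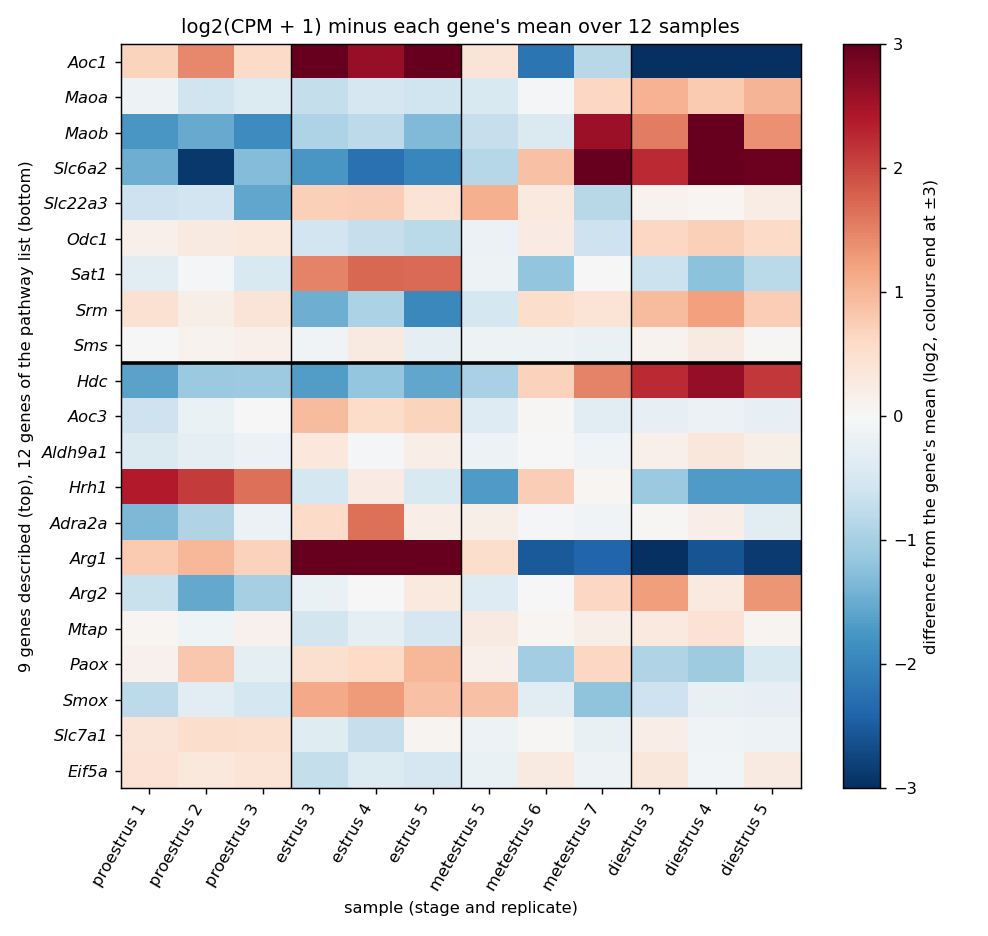
Difference of log2(CPM + 1) from the mean of each gene over 12 samples (colour, ending at ±3), for the 9 genes (upper rows) and the 12 pathway genes that differed over the stages (lower rows), in 12 uteri (columns, by stage and replicate). Arg1 is high with Aoc1 and Sat1 in the 3 estrus columns, Hdc with Maoa, Maob and Slc6a2 in the 3 diestrus columns, and metestrus replicate 7 has the colour of the diestrus columns for Maob, Slc6a2 and Hdc.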

How the data were processed

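Whole-uterus poly(A) RNA of 12 mice was profiled by 3' TagSeq. The authors deposited a table of 119414 transcripts per sample. The deposited estimated counts were not whole in 65.7% of values above 0, and the deposited TPM values were the authors' length-scaled estimates, per the file headers. Per the submitters' processing notes, FastQC, kallisto and DESeq2 were used; their options, the transcript set and the use of strand are not given in the sources used here. Identifiers of 116640 transcripts (97.7%) matched GENCODE M21 (GRCm38), and the other 2774 were left out. Estimated counts were summed per gene and rounded. No molecular identifiers were described.

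Genes were filtered with filterByExpr by stage, scaled with TMM factors (0.908 to 1.05) and fitted in edgeR 4.0.16 (R 4.3.3) with 1 coefficient per stage over 12 samples, so that stages share 1 spread (biological coefficient of variation 20.6%). P-values were adjusted by Benjamini-Hochberg over 12052 genes, with 0.05 as threshold. Log2 CPM used a prior count of 2, and the SE is the log2 fold change over the square root of the F statistic. The script was tested on simulated data. The 9 genes, the pathway list and the marker lists were chosen with earlier results of these data known. Named pathway genes are those called in the F test, and likeness names are the 3 genes with the highest r per member, of which the first is given and Hdc.

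Alternatives were RLE factors, library totals, no filter, DESeq2 1.42.0, protein-coding transcripts alone, counts scaled from TPM, only the samples of the 2 stages, a replicate block, each library left out and, added after seeing the data, Odc1 summed with Gm7993.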

Additional observations from a re-analysis of the deposited data

How the results depend on the processing

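Counts of pathway genes called kept within 1.5 times in 98 of 114 alternatives, and counts over all tested genes in 80 of 114. The 12 called over the stages became 7 with counts scaled from TPM, and ran from 7 to 16 when 1 library was left out. From proestrus to estrus 10 became 4 with counts scaled from TPM (5 to 12 without 1 library), between estrus and metestrus 4 became 2 with the samples of those stages alone (2 to 5), between diestrus and proestrus 5 became 3 with counts scaled from TPM (4 to 7), and from estrus to diestrus 10 ran from 7 to 12. Between metestrus and diestrus 0 became 2 with no filter (Arg1 and Hdc) and 1 with DESeq2 (0 to 1 without 1 library). Counts over all tested genes moved as well. Over the stages 2793 became 1674 with counts scaled from TPM (1910 to 3428 without 1 library). From proestrus to estrus 2064 became 1269 in the same way (1100 to 2414). Between estrus and metestrus 911 became 299 with those stages alone (341 to 1364). Between diestrus and proestrus 1028 became 539 with counts scaled from TPM (519 to 1281), and from estrus to diestrus 2744 ran from 1910 to 3146. Of 770 repeats of named pathway calls, 106 passed the threshold no longer and 0 changed direction. The cause of these losses was not tested.

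No label says that replicate numbers shared between stages pair the uteri. For estrus and diestrus, deviations of same-numbered samples correlated at -0.04, 0.01 and -0.02 for numbers 3, 4 and 5. With the replicate block 10 pathway genes were called, as without it. From 3 libraries per stage these values cannot exclude a shared day or batch. With protein-coding transcripts alone most counts of Odc1 and Slc22a3 are left out by construction. Over all genes, the 27 called between metestrus and diestrus became 256 with no filter, 148 with DESeq2 and 0 with counts scaled from TPM or the samples of those stages alone.

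Depth limits genes near 3 counts per library, here Slc6a2 before metestrus, Aoc1 and Hrh1 in diestrus, and 29 of the 65 pathway genes, which were not tested.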

Other observations

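Of the 65 pathway genes, 7 had 0 counts in all 12 libraries: Th and Pnmt of catecholamine synthesis, the dopamine transporter gene Slc6a3, the carrier gene Slc47a1, the receptor genes Hrh4 and Adra1d, and Agmat, whose product splits agmatine. Another 22 had some counts and were not tested, and no stage mean among them exceeded 5.43 CPM.

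Sult1a1, which encodes a sulfotransferase that can conjugate amines, was not called over the stages (edgeR adjusted p = 0.127) and is named after its values were seen. It measured 43.5 CPM in metestrus replicate 7 and 32.1 CPM in diestrus replicate 4, and at most 7.98 CPM in the other 10 libraries. Those are the libraries in which Maob was highest, at 142 and 342 CPM. The vesicular monoamine transporter gene Slc18a2 and the histamine methyltransferase gene Hnmt stayed between 1.04 and 10.2 CPM and between 2.28 and 6.94 CPM over the 12 libraries and were not called, with edgeR adjusted p of 0.861 and 0.556 over the stages.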
